A study of Mus musculus with 6 samples.

Results

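The collagen genes were read here in adipose tissue of mice with and without Cavin-3, a protein of the coat of caveolae, the small pits of the plasma membrane that are abundant in adipocytes. A gene was counted as a collagen gene when its symbol had the form Col, a type number, a and a chain number, and it was read from 1 probe set on the array, the one with the highest mean log2 signal over the 6 arrays among those annotated to a single gene. Of the 19937 genes that could be read in this way, 44 were collagen genes, namely 11 fibrillar, 6 basement membrane, 6 beaded filament, 9 FACIT and 12 other collagens. Total RNA of adipose tissue was compared between 3 WT and 3 cavin-3 KO litter mates, all 10 weeks old and fasted for 6 h, with 1 array per mouse and no other treatment. In the KO allele a lacZ/neo cassette takes the place of the whole gene in every cell of the animal, and the mice came from 1 targeted C57BL/6N ES cell clone. Which fat depot was taken is not stated in the labels or methods.

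Collagens are matrix proteins whose chains wind around each other in a triple helix. Fibrillar chains assemble into banded fibrils that carry tension, type IV chains form the sheet-like network of basement membranes, type VI chains form beaded filaments, and FACITs (fibril-associated collagens with interrupted triple helices) sit on the surface of fibrils. In fat, every adipocyte is wrapped in a basement membrane, and a fibrous and filamentous matrix made largely by fibroblasts and progenitors fills the space between cells. The comparison asked whether the mRNA of any of these chains differed between fat with and without Cavin-3.

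Levels are log2 intensities after RMA, the array normalization named by the submitters, differences are KO minus WT on that log2 scale, and each probe set was compared only with itself across arrays. Cavin3, the deleted gene, was read at 10.05, 10.90 and 10.45 in WT replicates 1 to 3 and at 6.79, 6.78 and 7.12 in KO replicates 1 to 3, a difference of -3.57 (limma, adjusted p = 0.0409), as the genotype labels say. All 8 adipocyte markers, among them Adipoq and Plin1, were above the median signal on all 6 arrays. WT replicate 2 and KO replicate 3 stood apart from the other arrays. Xist, the RNA of the inactive X chromosome, was 11.1 and 11.3 there against 3.70 to 6.30 elsewhere, and the Y-linked gene Uty was 3.36 and 3.21 there against 7.89 to 8.14, although the methods describe male animals. WT replicate 1 and KO replicate 2 shared another pattern, with the epididymis gene Spink8 at 11.9 and 11.5 against 4.12 to 5.31 and the smooth muscle gene Myh11 at 11.5 and 10.9 against 8.27 to 9.32. Of the 8 epididymis markers, Adam7 and Rnase9 were also highest on that pair of arrays. Adam28, Lcn5, Lcn8, Lcn9 and Rnase10 did not have the pattern. Each of these pairs of arrays holds 1 mouse of each genotype, and collagen results that rest on them are also given without them.

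No collagen mRNA was called different between WT and KO. None of the 44 genes passed an adjusted p of 0.05 by limma and 0 passed an unadjusted p of 0.05, against 1 gene (0.00502%) and 167 genes (0.838%) of all 19937. Shares this small leave little room for a call among 44 genes, so these counts do not set the collagens apart. The methods' t-test on log2 values also gave 0 collagen genes at an unadjusted p of 0.05, against 347 of all genes (1.74%). At the adjusted threshold that test called 0 of all genes, Cavin3 included, so it says nothing about the collagens there. The smallest unadjusted p among them was 0.106, for Col1a1. None was more than 1.2-fold apart in the group means of log2 values, where 1010 of all genes (5.07%) were. By group means of the linear intensities, Col6a5 and Col12a1 were more than 1.2-fold apart, with log2 ratios of -0.50 and -0.27. The differences of the log2 means ran from -0.26 to 0.10 with a median of -0.05, a 0.966-fold level in KO, where 9901 of all genes were lower and 10036 higher in KO. For 38 of the 44 collagen genes (86.4%) the 95% interval of the difference stayed within a 1.5-fold change either way, and for 83.7% of all genes it did. In whole tissue, fewer cells of a type and less mRNA per cell cannot be told apart.

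The collagen genes lay mostly on the lower side in KO. The KO mean was below the WT mean for 34 of 44 genes and above it for 10, whereas 49.7% of all genes were lower in KO. By class, 8 of 11 fibrillar genes, 6 of 6 basement membrane genes, 5 of 6 beaded filament genes, 7 of 9 FACIT genes and 8 of 12 other genes were lower, with median differences of -0.11, -0.05, -0.06, -0.03 and -0.04. Collagen genes read from the same 6 arrays are not independent of each other. With arrays left out singly these medians ran from -0.12 to -0.04 for the fibrillar, -0.11 to 0.00 for the basement membrane, -0.10 to 0.01 for the beaded filament, -0.13 to 0.07 for the FACIT and -0.06 to 0.01 for the other genes, and the median of all 44 from -0.09 to -0.0045. The lean rested in part on 1 array. Without WT replicate 2, the array whose omission gave the values nearest or past 0 for the fibrillar, FACIT and other genes, 23 of 44 genes were lower and 21 higher, while over the other arrays left out singly the number lower was 28 to 37. With WT replicate 2 and KO replicate 3 both left out it was 35 of 44, and with WT replicate 1 and KO replicate 2 both left out, an alternative added after the data were seen, it was again 35.

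**Figure D1:**
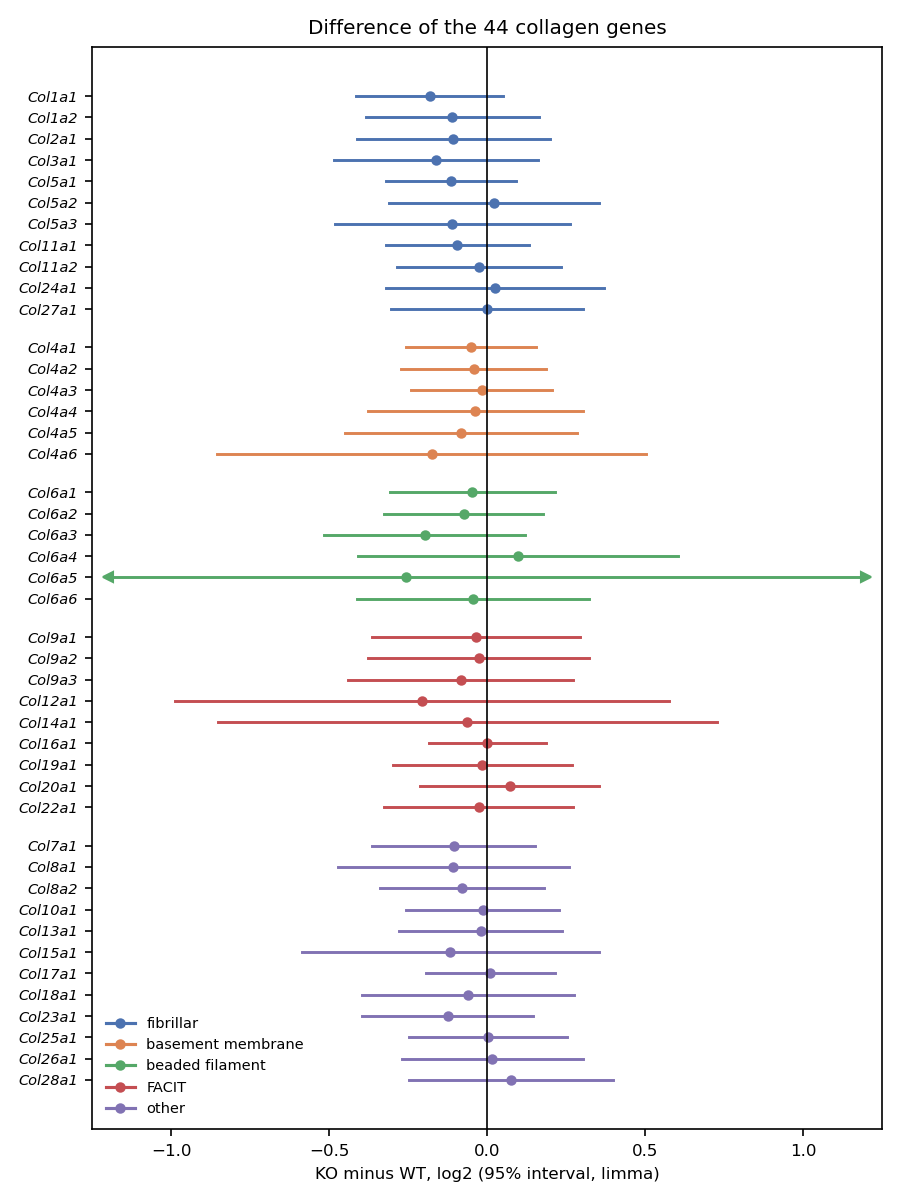
KO minus WT difference of each of the 44 collagen genes on the log2 scale, as points with 95% intervals from limma (n = 3 per genotype), coloured by class. All 44 intervals include 0, and the interval of Col6a5 runs past both ends of the axis, from -3.25 to 2.73.

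Type I collagen, the main fibril protein of connective tissue, is built from the products of Col1a1 and Col1a2. Col1a1 was 10.71, 10.55 and 10.57 in WT replicates 1 to 3 and 10.35, 10.39 and 10.54 in KO replicates 1 to 3. All 3 WT arrays were above all 3 KO arrays, but WT replicate 2 and KO replicate 3 lay almost level. The group means were 10.61 ± 0.09 and 10.43 ± 0.10 (SD, n = 3 each), a difference of -0.18 (95% interval -0.42 to 0.05), with a limma adjusted p of 1.0. The difference of Col1a1 was -0.27 with WT replicate 2 and KO replicate 3 both left out and -0.11 with WT replicate 1 and KO replicate 2 both left out. It was the single collagen gene whose genotypes did not overlap, where 919 of all genes (4.61%) did not. Col1a2 was 10.38, 10.05 and 10.30 in WT and 10.06, 10.12 and 10.21 in KO. Here WT replicate 2 was the lowest of the 6 arrays and the genotypes overlapped, with a difference of -0.11 (-0.38 to 0.16). Without WT replicate 2 the Col1a2 difference was -0.21 and the genotypes did not overlap, and without WT replicate 1 it was -0.04. With WT replicate 2 and KO replicate 3 both left out it was -0.25, and with WT replicate 1 and KO replicate 2 both left out it was -0.04.

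Type III collagen forms thin fibrils together with type I, and type V chains sit in the core of those fibrils and help set their width. Col3a1 was 10.32, 10.16 and 10.23 in WT and 9.89, 10.01 and 10.33 in KO. KO replicates 1 and 2 were below every WT array, and KO replicate 3 was the highest of all 6, so the groups overlapped (difference -0.16, -0.48 to 0.16). Without KO replicate 3 the Col3a1 difference was -0.29 (-0.55 to -0.03) with an unadjusted limma p of 0.0344 and an adjusted p of 1.0. With WT replicate 2 left out as well it was -0.33 (-0.62 to -0.03). Other omissions made it smaller, -0.07 (-0.41 to 0.28) without KO replicate 1 and -0.09 (-0.58 to 0.41) with WT replicate 1 and KO replicate 2 both left out. Col5a1 was 7.59, 7.74 and 7.69 in WT and 7.53, 7.54 and 7.61 in KO, a difference of -0.12 (-0.32 to 0.09). KO replicate 3 again came closest to WT, and it lay just above WT replicate 1. Col5a2 was 7.62, 7.72 and 7.76 in WT and 7.60, 7.56 and 8.0 in KO. Its difference of 0.02 (-0.31 to 0.35) was set by KO replicate 3 and was -0.12 without that array. The other 6 fibrillar genes, Col2a1, Col5a3, Col11a1, Col11a2, Col24a1 and Col27a1, had differences from -0.11 to 0.02. Col2a1, the chain of cartilage fibrils, was itself above the median signal (6.10) on all arrays, at 6.34 to 6.61 in WT and 6.22 to 6.52 in KO. Cartilage markers were mostly dim, with 1 of 8 above the median signal on all arrays. Their list means were 4.99 to 5.12 in WT and 5.06 to 5.31 in KO.

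The bases before the start of Col1a2 and Col3a1 are shown because these partners in mixed fibrils begin from unlike DNA. Each is the stretch of 250 bases up to the RefSeq start (GRCm38.p6), written 5′ to 3′ on the strand of the gene, and capitals mark the 3 letter strings searched on both strands, TATAAA (the TATA box core), CCAAT and GGGCGG (the GC box core). They are Col1a2 at chr6:4505368-4505617 on the plus strand and Col3a1 at chr1:45311288-45311537 on the plus strand.
Col1a2: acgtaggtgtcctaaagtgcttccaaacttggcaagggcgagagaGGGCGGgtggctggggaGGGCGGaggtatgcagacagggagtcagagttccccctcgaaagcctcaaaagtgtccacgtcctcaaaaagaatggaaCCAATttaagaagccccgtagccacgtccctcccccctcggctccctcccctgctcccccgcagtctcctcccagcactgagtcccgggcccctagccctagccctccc
Col3a1: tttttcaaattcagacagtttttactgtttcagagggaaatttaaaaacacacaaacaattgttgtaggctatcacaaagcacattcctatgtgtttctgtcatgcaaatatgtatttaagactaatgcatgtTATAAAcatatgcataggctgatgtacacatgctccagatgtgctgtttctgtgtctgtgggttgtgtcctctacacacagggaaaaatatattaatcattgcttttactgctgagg
Col1a2 held 1 CCAAT and 2 GGGCGG strings and 62.0% G and C, and Col3a1 held 1 TATAAA string, no other of the 3, and 35.2% G and C. A start window was given for 35 of the 44 genes, with 38 windows in all. TATAAA lay in 13.2% of the 38 collagen windows against 12.4% of all 32851 windows, CCAAT in 34.2% against 33.8%, and GGGCGG in 57.9% against 32.7%. The collagen windows had a median of 59% G and C against 52.4% in all windows, and the letters GGGCGG themselves are G and C alone. A match of letters does not show that a factor binds there.

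**Figure D2:**
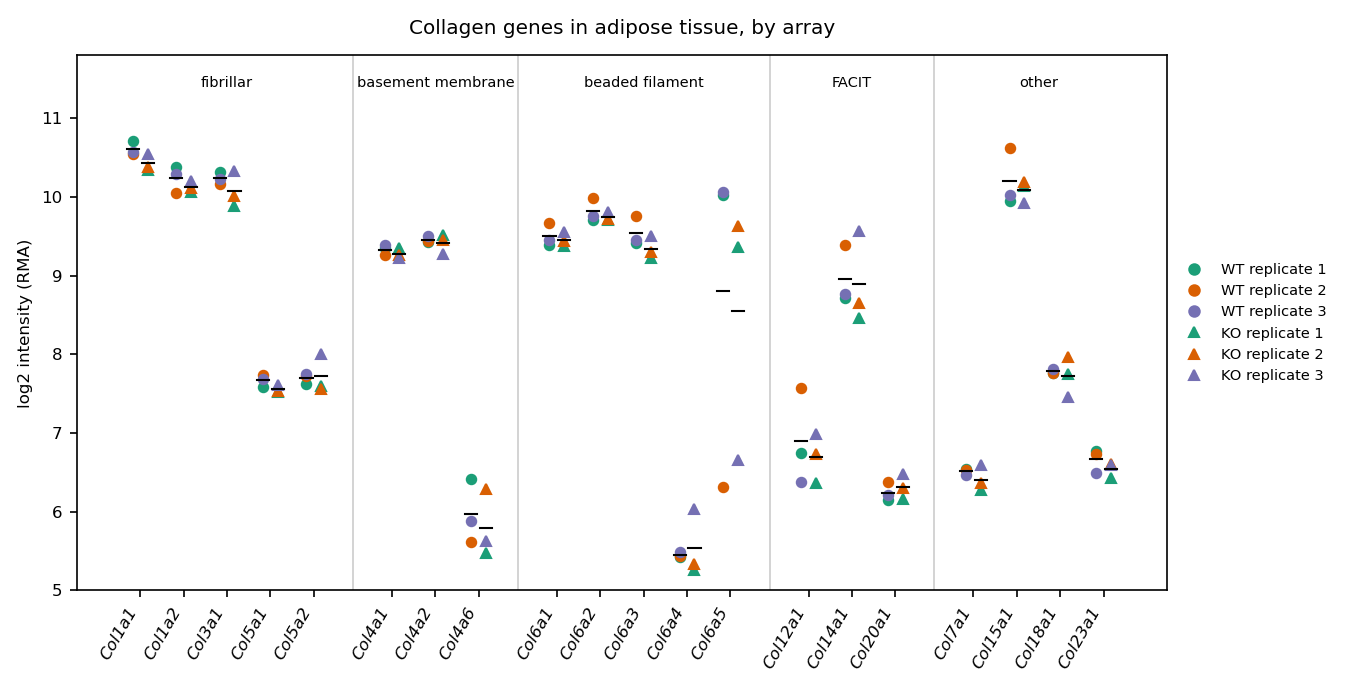
Log2 intensity (RMA) of 20 collagen genes on each of the 6 arrays, by class, with circles for WT, triangles for KO, a colour for each replicate number and a short line at each group mean. Col1a1 alone has all WT points above all KO points, and the Col6a5 points of WT replicate 2 (6.32) and KO replicate 3 (6.66) lie far below the other 4. Heights of different genes are not comparable, since each probe set has its own brightness.

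All 6 basement membrane genes had KO means below the WT means, with differences from -0.18 to -0.02. Col4a1 and Col4a2 encode the chains of the type IV network found around adipocytes and vessels. Col4a1 was 9.35, 9.26 and 9.39 in WT and 9.35, 9.26 and 9.22 in KO, a difference of -0.05 (-0.26 to 0.15). Col4a2 was 9.42, 9.44 and 9.51 in WT and 9.51, 9.45 and 9.28 in KO, a difference of -0.04 (-0.27 to 0.19). KO replicate 3 was the lowest array for both genes. The genes lie head to head on opposite strands, with starts 21 bases apart in RefSeq, and their deviations from their own means differed by no more than 0.08 on any array. Without KO replicate 3 the difference of Col4a2 was 0.03. Col4a3 and Col4a4, chains known from the kidney filter, had differences of -0.02 and -0.04.

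Col4a5 and Col4a6 are a second head-to-head pair, on the X chromosome, with starts 1343 bases apart. Type IV chains of this pair form the basement membrane around smooth muscle and epithelia. Col4a6 was 6.41, 5.61 and 5.89 in WT and 5.47, 6.28 and 5.63 in KO. WT replicate 1 and KO replicate 2 were its highest arrays, the pair in which the 8 smooth muscle markers averaged 10.3 and 10.2 against 8.42 and 9.15 in the other WT and 7.91 and 8.86 in the other KO arrays. The part of smooth muscle in these values was not tested, and Col4a6 was above the median signal (6.10) in WT replicate 1 and KO replicate 2 alone. The difference of Col4a6 was -0.18 (-0.85 to 0.50), and it was -0.20 (-0.60 to 0.21) with WT replicate 1 and KO replicate 2 both left out. Left out singly, arrays moved it from -0.42 without KO replicate 2 to 0.05 without WT replicate 1. Col4a5 was 6.72, 6.36 and 6.73 in WT and 6.53, 6.72 and 6.32 in KO, lowest in WT replicate 2 and KO replicate 3, the arrays with high Xist. Its difference was -0.08 (-0.45 to 0.28). The deviations of Col4a5 and Col4a6 from their own means were up to 0.38 apart on 1 array, against 0.08 for Col4a1 and Col4a2.
The 250 bases before each start of this X-linked pair are shown because the genes point away from a common stretch and yet differed in pattern. They are Col4a6 at chrX:141474077-141474326 on the minus strand and Col4a5 at chrX:141475169-141475418 on the plus strand (RefSeq, GRCm38.p6), with the same 3 strings in capitals.
Col4a6: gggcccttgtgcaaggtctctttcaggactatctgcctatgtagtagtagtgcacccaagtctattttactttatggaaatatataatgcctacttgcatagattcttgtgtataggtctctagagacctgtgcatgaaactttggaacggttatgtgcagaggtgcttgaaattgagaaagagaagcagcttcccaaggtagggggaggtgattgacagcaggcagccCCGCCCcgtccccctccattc
Col4a5: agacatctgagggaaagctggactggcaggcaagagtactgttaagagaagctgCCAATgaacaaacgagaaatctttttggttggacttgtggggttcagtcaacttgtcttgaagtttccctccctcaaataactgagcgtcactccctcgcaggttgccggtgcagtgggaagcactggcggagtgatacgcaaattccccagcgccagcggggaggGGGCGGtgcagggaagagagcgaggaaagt
Col4a6 held 1 GC box core, read here as its reverse complement, and Col4a5 held 1 CCAAT and 1 GGGCGG string.

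Type VI collagen, the beaded filament collagen of fat and muscle, is assembled from the chains of Col6a1, Col6a2 and 1 of several longer chains, of which Col6a3 is the common one. Col6a1 was 9.39, 9.67 and 9.46 in WT and 9.38, 9.44 and 9.56 in KO, and Col6a2 was 9.70, 9.99 and 9.76 in WT and 9.71, 9.71 and 9.81 in KO. Their differences were -0.05 (-0.31 to 0.21) and -0.07 (-0.33 to 0.18), and without WT replicate 2 they were 0.03 and 0.01. The patterns of these genes over the arrays were alike, with deviations from their own means no more than 0.05 apart. Col6a3 was 9.41, 9.76 and 9.45 in WT and 9.22, 9.30 and 9.51 in KO. WT replicate 2 was its highest array, as for Col6a1 and Col6a2, and KO replicate 3 lay above WT replicates 1 and 3. The Col6a3 difference of -0.20 (-0.52 to 0.12) had an unadjusted limma p of 0.181 and an adjusted p of 1.0, and was -0.09 without WT replicate 2. Col6a4 was 5.42, 5.43 and 5.48 in WT and 5.25, 5.34 and 6.03 in KO. The gene was dim, below the median signal of 6.10 on every array. KO replicate 3 set its difference of 0.10 (-0.41 to 0.60), which was -0.15 without that array.

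Col6a5 varied more between arrays than any other collagen gene. This long chain can take the place of the Col6a3 product in type VI collagen. Col6a5 was 10.03, 6.32 and 10.07 in WT and 9.36, 9.63 and 6.66 in KO. WT replicate 2 and KO replicate 3 were low, and the 2 low arrays fell 1 in each genotype, so that the range over the arrays was 3.75 (13.4-fold) while the genotype difference was -0.26 (-3.25 to 2.73). A second probe set of Col6a5 had the same 2 low arrays, at 9.14, 6.56 and 9.30 in WT and 8.62, 8.80 and 6.52 in KO. The low arrays were those with high Xist and low Uty. Those arrays also had the highest means of the 8 skeletal muscle markers, 8.73 and 8.78, against 5.78 to 7.01 in the other 4 arrays. Which of these goes with Col6a5 was not tested.
With WT replicate 2 and KO replicate 3 both left out, the 2 KO arrays were below the 2 WT arrays and the difference of Col6a5 was -0.55 (-0.91 to -0.19), with an unadjusted limma p of 0.0126 and an adjusted p of 1.0. In that comparison of 2 against 2 arrays, 14 collagen genes were lower and 2 higher with no overlap (36.4%), where 28.2% of all genes did not overlap. With WT replicate 1 and KO replicate 2 left out instead, 4 collagen genes did not overlap (9.09%), where 25.6% of all genes did not. Col6a6, a related long chain, was 7.72, 7.43 and 7.98 in WT and 7.62, 7.78 and 7.60 in KO on its brighter probe set, and again WT replicate 2 and KO replicate 3 were lowest. Its other probe set was 7.45, 6.46 and 7.71 in WT and 7.30, 7.38 and 6.88 in KO, a wider version of the same pattern. The probe sets of Col6a6 had differences of -0.04 and -0.02.
The 250 bases before the Col6a5 start are shown because this was the collagen gene with the widest range. They lie at chr9:105960644-105960893 on the minus strand (RefSeq, GRCm38.p6), with the same 3 strings in capitals.
Col6a5: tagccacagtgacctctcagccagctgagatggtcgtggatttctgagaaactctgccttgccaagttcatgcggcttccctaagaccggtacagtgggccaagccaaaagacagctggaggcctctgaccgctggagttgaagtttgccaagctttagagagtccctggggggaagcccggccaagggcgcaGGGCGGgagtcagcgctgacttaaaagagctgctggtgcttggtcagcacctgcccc
The stretch held 1 GGGCGG string, neither of the other strings, and 58.8% G and C.

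**Figure D3:**
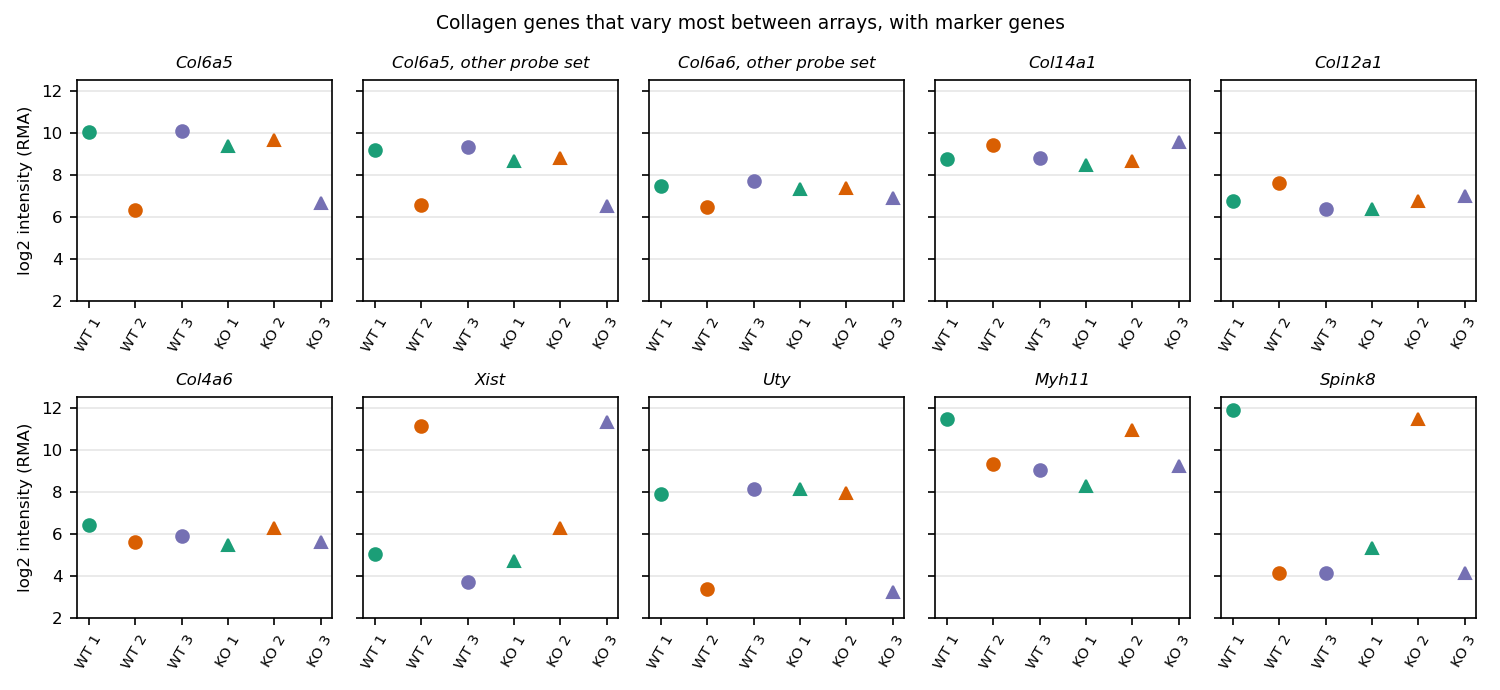
Log2 intensity (RMA) on each array of the collagen genes that varied most, with the second probe sets of Col6a5 and Col6a6, and of Xist, Uty, Myh11 and Spink8; circles are WT and triangles are KO. Both Col6a5 probe sets were below 7 in WT replicate 2 and KO replicate 3, where Xist was above 11, and Col4a6 was highest in WT replicate 1 and KO replicate 2, where Myh11 and Spink8 were highest.

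Among the FACIT genes, Col12a1 and Col14a1, whose products decorate type I fibrils, varied most. Col12a1 was 6.74, 7.58 and 6.38 in WT and 6.36, 6.74 and 6.98 in KO, a difference of -0.21 (-0.99 to 0.57). Col14a1 was 8.72, 9.39 and 8.77 in WT and 8.47, 8.65 and 9.57 in KO, a difference of -0.06 (-0.85 to 0.73). WT replicate 2 and KO replicate 3 were the highest 2 arrays for both genes. The 7 fibroblast and progenitor markers also averaged highest there, at 9.41 and 9.59 against 9.20 and 9.31 in the other WT and 9.08 and 9.25 in the other KO arrays. That held on both arrays for 4 of the 7, Dpt, Pi16, Cd34 and Thy1, while Pdgfrb was lowest of all in WT replicate 2 (9.21) and Pdgfra and Dpp4 (8.93 and 8.92 there) were each below at least 1 of the other 4 arrays. The part of these cells was not tested. Without those arrays the differences were -0.01 (-0.57 to 0.54) for Col12a1 and -0.18 (-0.50 to 0.13) for Col14a1. Col20a1, another FACIT chain, was 6.15, 6.37 and 6.21 in WT and 6.16, 6.31 and 6.48 in KO, with a difference of 0.07 (-0.21 to 0.35). The other 6 FACIT genes, Col9a1, Col9a2, Col9a3, Col16a1, Col19a1 and Col22a1, had differences from -0.08 to 0.00. Col16a1 had the narrowest range of all 44 genes, from 6.34 to 6.41.

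The other collagens include the multiplexins of basement membrane zones, the type VII anchoring fibril, the network collagens VIII and X and the transmembrane collagens. Col15a1, a multiplexin between basement membrane and fibrils, was 9.95, 10.62 and 10.03 in WT and 10.14, 10.18 and 9.92 in KO. WT replicate 2 alone was high, and the difference of -0.12 (-0.59 to 0.35) was 0.09 without it. That array also had the highest mean of the 7 urothelium markers, 7.87 against 5.70 to 6.34 elsewhere, and their part was not tested. Col18a1, the multiplexin whose end fragment is endostatin, was 7.77, 7.77 and 7.81 in WT and 7.75, 7.96 and 7.45 in KO. KO replicate 3 was its lowest array, and its difference was -0.06 (-0.39 to 0.28), or 0.08 without that array. Col7a1, the anchoring fibril chain, was 6.54, 6.54 and 6.47 in WT and 6.28, 6.36 and 6.59 in KO, with a difference of -0.11 (-0.36 to 0.15). Once more KO replicate 3 was above the other KO arrays and above WT, and the difference of Col7a1 was -0.20 without it and -0.04 without KO replicate 1. Col23a1, a transmembrane collagen, was 6.78, 6.74 and 6.49 in WT and 6.43, 6.60 and 6.59 in KO, a difference of -0.12 (-0.40 to 0.15) that ran from -0.22 without WT replicate 3 to -0.07 without WT replicate 1. The other 8 genes of this class, Col8a1, Col8a2, Col10a1, Col13a1, Col17a1, Col25a1, Col26a1 and Col28a1, had differences from -0.11 to 0.07.

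Read across arrays rather than genotypes, many collagens were at an extreme in the pair with high Xist. Of the 44 genes, 17 peaked on the array of WT replicate 2 and another 12 on that of KO replicate 3, while 21 were lowest on that of KO replicate 1. Such counts were not taken over all genes, so they do not set the collagens apart. WT replicate 2 and KO replicate 3 were both above the other 4 arrays for 20 of 44 collagen genes. The same held for 3301 of all 19937 genes. Both arrays were below the other 4 for 4 collagen genes (Col4a1, Col4a5, Col6a5 and Col6a6) and for 1928 of all genes. Counting either direction, 24 of 44 collagen genes and 5229 of all genes (26.2%) had the pattern. The collagen share was thus above that of all genes on the higher side but not on the lower side. The deviation of each gene from its own mean over the 6 arrays was also taken. For the FACIT genes its medians were 0.22 and 0.19 on WT replicate 2 and KO replicate 3, against -0.15 to -0.07 on the other 4. The fibrillar genes had medians of 0.12 and 0.14 there, and the basement membrane genes -0.10 and -0.14. The fibrillar and basement membrane classes thus lay on opposite sides on these arrays. The 13 collagen genes whose mean was below the median signal had medians of 0.11 and 0.08 on these arrays and the 31 above it 0.09 and 0.03, while all 8540 genes below it had 0.03 and 0.05 and all 11397 above it -0.0046 and -0.0084. The part of low signal in the collagen values was not tested. No genotype difference of that pattern was tested, since each genotype had 1 such array.

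**Figure D4:**
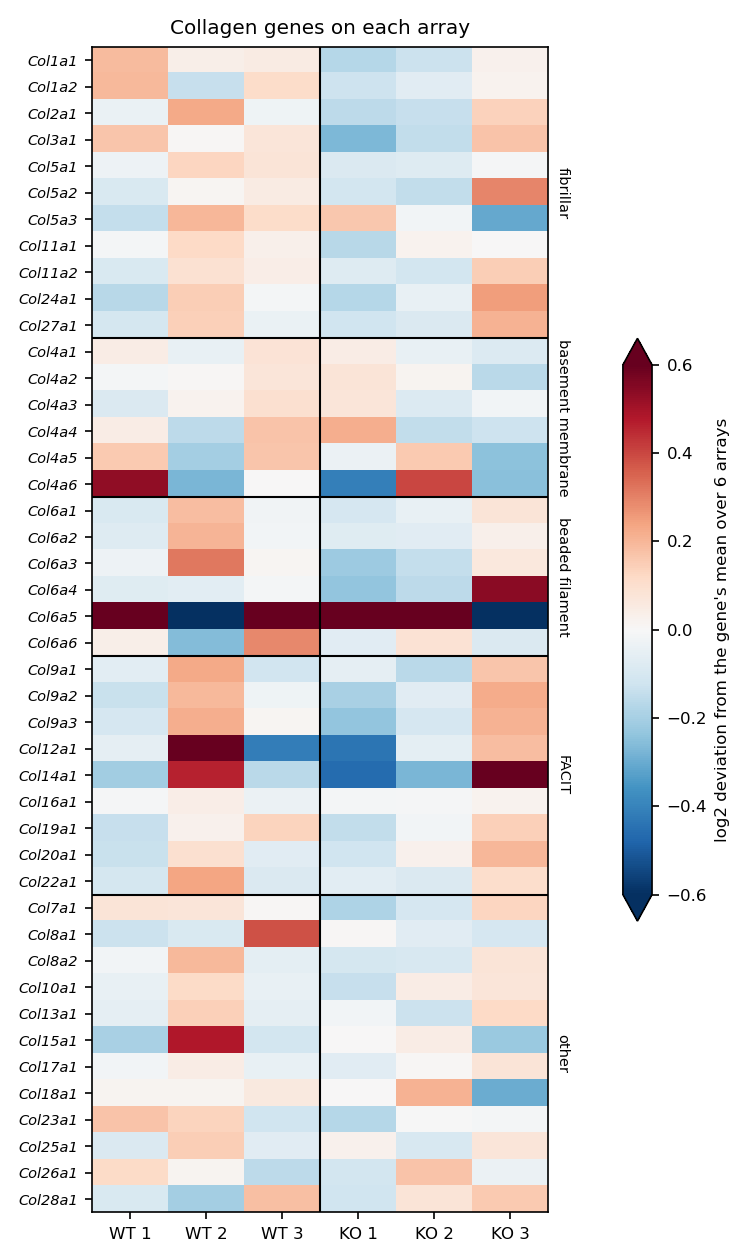
Deviation of each of the 44 collagen genes from its own mean over the 6 arrays, in log2 units, by class and array, with red above and blue below the mean and colours ending at 0.6 either way. Most FACIT and fibrillar rows are red in WT replicate 2 and KO replicate 3, and the type IV rows and Col6a5 are mostly blue there. KO replicate 1 is the lowest array for 21 of the 44 genes, a count not taken over all genes.

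The genes that make, trim, crosslink and bind collagen gave no call between the genotypes either. Of 76 such genes, 40 were lower and 36 higher in KO, with a median difference of -0.01, and 0 passed an adjusted or an unadjusted p of 0.05 by limma, beside the 0.838% of all genes at the unadjusted threshold. By step, 8 of 14 genes of prolyl and lysyl hydroxylation, 5 of 9 of folding and export, 4 of 7 of procollagen trimming and 2 of 4 of crosslinking were lower in KO. So were 4 of 9 collagen receptors, 5 of 9 fibril-binding proteoglycans, 8 of 14 basement membrane partners and 4 of 10 fibril-associated matrix genes. The genotypes did not overlap for 4 of the 76, namely P3h2 and Lair1, higher in KO, and Nid2 and Lamc1, lower in KO, where 4.61% of all genes did not overlap.

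In each list the gene with the smallest p was examined more closely. P3h2, a prolyl 3-hydroxylase, was 7.85, 7.40 and 7.83 in WT and 7.92, 7.91 and 7.95 in KO, a difference of 0.24 with an unadjusted limma p of 0.139. WT replicate 2 set much of that difference, and WT replicates 1 and 3 lay just below the KO arrays. Mia3, which helps load procollagen into export vesicles, was 8.34, 8.20 and 8.37 in WT and 8.45, 8.36 and 8.36 in KO, a difference of 0.08. Pcolce, the enhancer of procollagen C-proteinase, was 9.93, 10.28 and 10.19 in WT and 9.73, 9.93 and 10.14 in KO, a difference of -0.20. Its KO values rose from replicate 1 to replicate 3, as for Col1a1, Col1a2, Col3a1 and Col5a1. Not every fibrillar gene had that order, and KO replicate 3 was the lowest array for Col5a3. Loxl1, a crosslinking oxidase, differed by -0.17, the inhibitory collagen receptor Lair1 by 0.16 and the matrix proteoglycan Prelp by 0.21. Nid2, which links laminin to type IV collagen, was 9.86, 10.04 and 9.76 in WT and 9.73, 9.73 and 9.38 in KO, with a difference of -0.27 (-0.60 to 0.05) and an unadjusted limma p of 0.0867. Lamc1, a laminin chain of the same sheet chosen after its values were seen, was 10.58, 10.55 and 10.64 in WT and 10.46, 10.47 and 10.38 in KO, a difference of -0.15. Thbs1, a secreted thrombospondin that binds matrix, was 8.57, 9.28 and 9.07 in WT and 9.78, 9.08 and 10.11 in KO. KO replicates 1 and 3 were above all WT arrays and KO replicate 2 was within them, and the difference of 0.68 (-0.05 to 1.41) had an unadjusted limma p of 0.0625. Each of these genes had an adjusted p of 1.0 by limma.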

How the data were processed

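RNA of adipose tissue was read on 6 Affymetrix Mouse Gene 1.0 ST arrays, 3 WT and 3 KO. Per the study's methods the RNA was amplified to cDNA, while the label protocol names cRNA. The deposited values are linear intensities, 1 per probe set and array, made by the authors with RMA (background correction, quantile normalization and summary of probes), the tool their processing notes name without a version. Array medians were 67.1 to 70.8 in intensity. No scanner file was read, which leaves the signal over background unknown, and precision is limited by having 3 arrays per genotype. The genome build of the array annotation is not given in the labels or methods.

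After log2 transformation, both genotypes were fitted with limma 3.58.1 (lmFit, eBayes, no covariate) in R 4.3.3, with Benjamini-Hochberg adjustment over all 34760 probe sets. Of these, 21640 carried 1 gene symbol, 1321 several and 11799 were not listed in the annotation, and the single-symbol sets gave 19937 genes. All 44 collagen symbols were in the mouse RefSeq table, which with its start windows (GRCm38.p6) supplied the sequences. The fit was also tested on simulated data with means and spreads taken from these arrays.

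The members, classes, pathway lists and marker lists were chosen with earlier results of these data known. Values on every array were given for 13 chains known from fat, the 2 genes of smallest p in each class, genes whose groups do not overlap and the 6 of widest range, and the gene of smallest p was named in each pathway list. Two-sided p-values set each difference against the spread between these animals, which limma draws toward a value shared by all probe sets. The alternatives covered scaling (quantile normalization again, median centring), probe sets (dim ones dropped, single-symbol sets alone, genes averaged over their sets), the test (the methods' t-test on either scale, trended robust variance, weights per array, the replicate number as block) and arrays dropped singly or in pairs. Marker lists not described with the collagens were given as means per array. The endothelial list averaged 9.23 to 9.66, the macrophage list 9.17 to 9.62, the mesothelial list 8.27 to 9.01, the epidermal list 5.09 to 5.90, the liver list 5.30 to 7.19 and the epididymal list 3.98 to 6.26.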

Additional observations from a re-analysis of the deposited data

How the results depend on the processing

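Under every alternative run, 0 collagen genes and 0 pathway genes passed an adjusted p of 0.05. In many of these runs 0 of all genes passed it, Cavin3 included. Those were the t-test on either scale, the replicate block and both omissions of a pair of arrays. The single omissions were among them too, except that of WT replicate 1. At that threshold such runs say nothing about the collagen or pathway genes. The number of collagen genes past an unadjusted p was 0 to 1 with arrays left out singly (1 without KO replicate 3, Col3a1) and 2 with WT replicate 2 and KO replicate 3 both left out. Of all 19937 genes, 257 passed it by limma without KO replicate 3 and 280 with WT replicate 2 and KO replicate 3 both left out. The number higher in KO, 10 of 44, was 5 with dim probe sets left out (of 31 genes), 5 with array weights and 7 to 21 with arrays left out singly, the 21 without WT replicate 2. The number whose groups do not overlap was 0 after repeated quantile normalization, 1 to 11 with arrays left out singly, 16 with WT replicate 2 and KO replicate 3 both left out and 4 with WT replicate 1 and KO replicate 2 both left out, the last an alternative chosen after seeing the data. Fewer arrays per group leave more genes without overlap, and 15.1% of all genes had none without KO replicate 3. Of all genes, 25.6% had none with WT replicate 1 and KO replicate 2 both left out. The beaded filament median was -0.10 to 0.0097 with arrays left out singly and -0.15 with WT replicate 2 and KO replicate 3 both left out.

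With arrays left out singly, differences that changed sign ran from -0.12 to 0.10 for Col5a2, -0.094 to 0.026 for Col4a2, -0.42 to 0.047 for Col4a6, -0.10 to 0.034 for Col6a1, -0.13 to 0.010 for Col6a2, -0.15 to 0.24 for Col6a4, -1.50 to 0.69 for Col6a5, -0.47 to 0.13 for Col12a1, -0.40 to 0.15 for Col14a1, -0.010 to 0.15 for Col20a1, -0.24 to 0.094 for Col15a1 and -0.18 to 0.075 for Col18a1. Array weights gave -0.072 for Col5a2 and -0.042 for Col6a4. With WT replicate 2 and KO replicate 3 both left out the differences were -0.11 for Col5a2, 0.018 for Col4a2, -0.16 for Col6a4, 0.18 for Col15a1 and 0.068 for Col18a1. The cause was not tested. Differences that kept their sign ran from -0.24 to -0.13 for Col1a1, -0.21 to -0.041 for Col1a2, -0.29 to -0.068 for Col3a1, -0.16 to -0.081 for Col5a1, -0.088 to -0.025 for Col4a1, -0.28 to -0.090 for Col6a3, -0.20 to -0.039 for Col7a1 and -0.22 to -0.070 for Col23a1 with arrays left out singly.

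Replicate numbers were not treated as pairs in the main fit. The check of this by correlation cannot exclude a litter or batch shared by number, since large differences between arrays enter the same correlations. Deviations of same-numbered WT and KO arrays correlated at -0.15, -0.37 and -0.09 and 0 of 6 arrays correlated best with its own number. Across numbers, WT replicate 1 with KO replicate 2 gave 0.52, WT replicate 2 with KO replicate 3 gave 0.48 and WT replicate 3 with KO replicate 1 gave 0.37. With the replicate block 34 genes were lower, 0 passed an adjusted p and the unadjusted p of Col1a1 was 0.178. With 3 arrays per genotype, a median standard error of 0.13 and signal over background unknown, small differences were not detectable. At the adjusted threshold larger ones could go uncalled too. Cavin3, with a difference of -3.57, passed it narrowly (limma adjusted p = 0.0409) and was the only gene of 19937 to do so.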
